A study of Mus musculus with 4 samples.

Results

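The guanylate-binding proteins (GBPs) are large GTPases that cells make in quantity when they are exposed to interferon. The genes described here are the 10 mouse family members Gbp2, Gbp2b, Gbp3, Gbp4, Gbp5, Gbp6, Gbp7, Gbp8, Gbp9 and Gbp10, taken by symbol through their NCBI gene IDs, and all 10 were found among the 27179 genes of the count table. RNA-seq was done on MC38, a mouse colon cancer cell line without engineered changes, to ask how IFN-γ and low oxygen act on tumor cells. There were 4 libraries, 1 for each combination of untreated or IFN-γ treated cells with normoxic or hypoxic culture, so no condition had a replicate. The study's usual IFN-γ treatment was 5 ng/mL for 24 h, with oxygen at 20% for normoxia and 1.5% for hypoxia. Depth hardly differed, with totals of 34302971 counts in the normoxic control, 34514248 in the hypoxic control, 34537939 in the normoxic IFN-γ library and 34420642 in the hypoxic IFN-γ library.

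The label of colon cancer cells was set against marker genes. Of 8 epithelial markers, 4 (Epcam, Krt18, Cdh1 and Cdx2) stayed at or under 6 counts in all 4 libraries, with Cdh1 and Cdx2 at 0 throughout. The most counted epithelial marker, the keratin gene Krt8, had 90 and 56 counts in the normoxic and hypoxic controls and 56 and 48 with IFN-γ. The epithelial markers summed to 113, 105, 89 and 85 counts in the same order, and 6 fibroblast markers to 4359, 4838, 3768 and 3554, led by the collagen gene Col3a1 with 2859, 3238, 2373 and 2233. Krt20 had 12, 18, 14 and 22 counts and Vil1 had 7, 13, 17 and 13, so epithelial transcripts were few but not all absent. Macrophage markers summed to 301, 343, 310 and 258 counts, mostly from the lysosomal gene Cd68 with 209, 236, 212 and 170, while Adgre1 and Itgam were at 0 in every library. T cell markers summed to 41, 30, 23 and 21 counts with Cd8a at 0 and Cd3d at 20, 16, 6 and 14. Endothelial markers summed to 50, 47, 28 and 50 with Kdr at 0 and Cdh5 highest at 50, 36, 16 and 30. Pecam1, another of them, had 0, 11, 10 and 18 counts and was higher with IFN-γ in both pairs. None of these 5 marker sums rose with IFN-γ in both pairs of libraries. In bulk RNA, fewer expressing cells and less RNA per cell cannot be told apart.

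GBPs bind and hydrolyse GTP and assemble into coats on membranes, above all on the vacuoles in which bacteria and parasites live and on bacteria free in the cytosol. Coating helps to break the vacuole, draws ubiquitin ligases and autophagy proteins to it, and exposes bacterial lipopolysaccharide to inflammatory caspases. Gbp2, Gbp2b and Gbp5 end in a motif for the attachment of an isoprenoid lipid that anchors them in membranes. The genes are classic targets of the transcription factor IRF1, and human family members have been studied as markers of an interferon response in colorectal tumors.

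The family lies in 2 blocks in the mouse genome (RefSeq, GRCm38.p6, the assembly that the submitters' processing notes name as mm10). Gbp5 (gene 229898), Gbp7 (229900), Gbp3 (55932), Gbp2b (14468) and Gbp2 (14469) follow each other on the plus strand at chr3:142496934-142638008. The other block, at chr5:105012513-105295871, holds Gbp8 (76074), Gbp9 (236573), Gbp4 (17472), Gbp10 (626578) and Gbp6 (100702). Promoters are shown for the first block. RefSeq promoters, which run from 250 bases before to 50 after a start, were matched for 5 of the 10 members, not for Gbp8, Gbp9, Gbp4, Gbp10 and Gbp6. The capitals mark every match to GAAANNGAAA on either strand, a core of the interferon-stimulated response element (ISRE) bound by IRF proteins, here matched on the minus strand, so that the plus strand reads TTTCNNTTTC. Each line holds 80 bases of the plus strand, 5′ to 3′, which is the strand of these genes.

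Gbp5: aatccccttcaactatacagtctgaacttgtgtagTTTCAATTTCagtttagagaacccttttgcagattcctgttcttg
Gbp7: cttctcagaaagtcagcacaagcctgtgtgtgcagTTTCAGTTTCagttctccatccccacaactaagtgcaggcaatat
Gbp3: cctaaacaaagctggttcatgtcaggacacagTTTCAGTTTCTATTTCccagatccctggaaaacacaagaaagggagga
Gbp2b: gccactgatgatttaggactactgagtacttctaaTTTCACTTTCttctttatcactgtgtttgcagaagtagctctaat
Gbp2: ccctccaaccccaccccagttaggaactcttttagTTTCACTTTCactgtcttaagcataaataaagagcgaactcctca

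The windows lie at chr3:142496734-142496813 for Gbp5, chr3:142530248-142530327 for Gbp7, chr3:142559967-142560046 for Gbp3, chr3:142594675-142594754 for Gbp2b and chr3:142620569-142620648 for Gbp2. All 5 members had the ISRE letters, which occur in 3.44% of the 32851 mouse promoters in the RefSeq table. The match began at position -165 from the start of Gbp5, -53 for Gbp7, -137 for Gbp2b and -59 for Gbp2. Gbp3 had 2 overlapping matches, at -45 and -39, and its other listed promoter had none. Gbp2b and Gbp2 carried the same 10 letters, although in both IFN-γ libraries Gbp2 had the most and Gbp2b the fewest counts of the family. The letters TTCNNNGAA, the core of the gamma-activated sequence (GAS) of interferon-induced genes, read alike on both strands and occur in 8.3% of promoters. They were found at 2 places in the promoter of Gbp5 (-245 and -52) and at 2 in that of Gbp7 (-106 and -87), and in no promoter of Gbp3, Gbp2b or Gbp2. ACGTG and GCGTG, cores of the hypoxia response element bound by HIF proteins, were searched on both strands and occur in 19.6% and 32.4% of promoters. Neither was in these promoter windows of the 5 members. A match describes the letters only.

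Close paralogs can exchange reads, so the likeness of the members bears on every count. Coding sequences of the chromosome 5 members were 90.5% to 92.9% identical in 9 of their 10 pairs, and Gbp6 and Gbp10 were 98.4% identical. On chromosome 3 the 10 pairs were 66.7% to 82.5% identical, with Gbp2 and Gbp2b the closest pair and Gbp3 and Gbp7 next at 79.6%. Of the 31-base words in its annotated transcripts, Gbp10 shared 80.8% with Gbp6, and Gbp6 shared 51.4% with Gbp10. Gbp6 shared more, 67.8%, with Gm43302, a GENCODE gene that overlaps Gbp10 and Gbp6 and is not part of the family sum. Over all annotated genes the shared part was 89.8% for Gbp10, 74.2% for Gbp6 and 31.1% for Gbp8. For the other members it ran from 3.05% for Gbp5 to 18.3% for Gbp9. Of 100-base words, the read length, Gbp10 shared 73.5%, Gbp6 64.5%, Gbp7 10% and Gbp8 4.39%. Gbp10 and Gbp6 are thus uncertain as single genes at both lengths, and Gbp8 by the shorter words. The counts on all 10 genes were therefore also summed.

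The counts themselves leaned to even numbers. Among genes with 1 to 20 counts, between 63.2% and 64.8% of the values were even in the 4 libraries, and in the normoxic control 1091 genes had 2 counts against 517 with 1. Both reads of a pair thus appear to have been counted, and 95% intervals were computed on counts divided by 2. They cover counting error only. The floor under which a gene is not told from absent was set at 6 counts, or 3 read pairs, which is 0.173 to 0.175 TMM-normalized CPM.

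IFN-γ raised the family as a whole. The 10 genes summed to 1773 counts in the normoxic control and 41148 in the normoxic IFN-γ library, and to 2221 and 51529 under hypoxia. The IFN-γ libraries were far above both controls. The ratio was 23.4-fold in either oxygen, with 95% intervals of 21.9 to 25.1 under normoxia and 22 to 24.9 under hypoxia. On the log2 scale this is 4.55, and the sum without Gbp2 gave 3.95 under normoxia and 4.03 under hypoxia. An additive model of IFN-γ and oxygen was tested with edgeR (quasi-likelihood, Benjamini-Hochberg adjusted p under 0.05). In it 9 of the 10 members were raised by IFN-γ, where 4.76% of all 13580 tested genes were raised and 1.10% lowered. Gbp2b did not pass the filter on low counts. Gbp4, Gbp8 and Gbp10 had under 10 counts in at least 1 control and passed the filter through the IFN-γ libraries, so their place among the raised genes was partly given. Gbp2, Gbp3, Gbp5, Gbp6, Gbp7 and Gbp9 reached 10 counts in each of the 4 libraries. When only genes that do so were tested, these 6 were raised again. The share of all genes raised under that filter was not taken. The edgeR test gets its error from how far genes stray from additive effects, and not from replicate cultures. Each gene leaves 1 residual degree of freedom, so this error is pooled over genes. Standard errors beside fitted changes were worked back from this test. Each is the size of the log2 change divided by the square root of the F statistic.

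**Figure D1:**
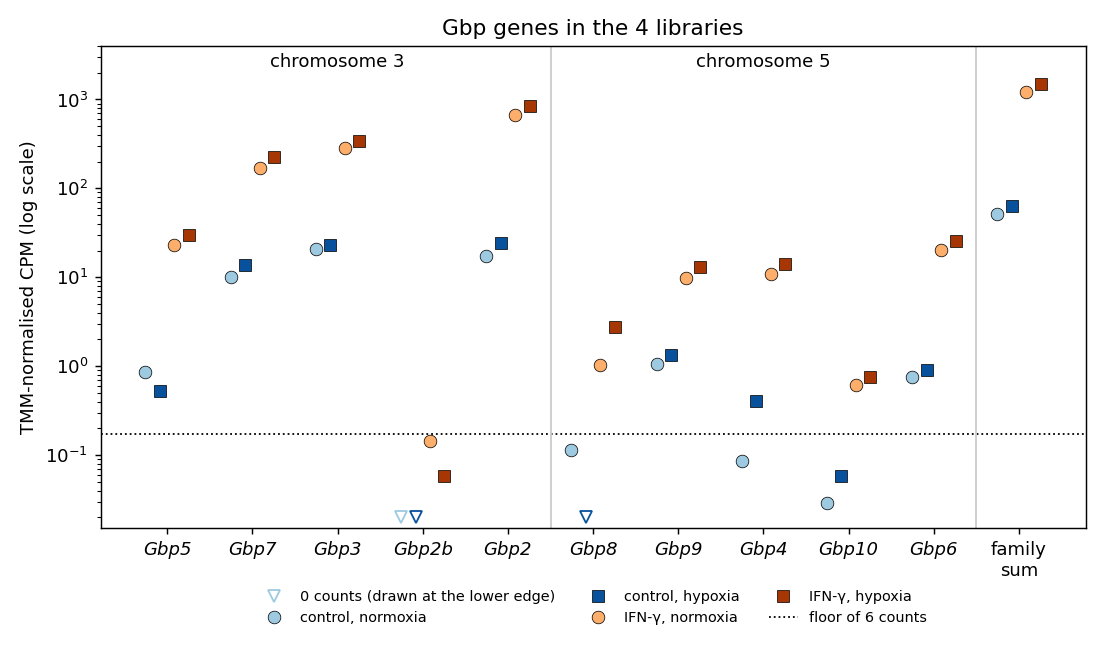
TMM-normalized CPM on a log scale for each Gbp gene and for the family sum, with 1 point per library and the floor of 6 counts as a dotted line. In 9 of the 10 genes both IFN-γ points lie above both control points and above the floor, and Gbp2b stays under the floor in every library.

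Gbp2, an isoprenylated member that coats parasite vacuoles, had 597 counts in the normoxic control, 846 in the hypoxic control, 23153 in the normoxic IFN-γ library and 29245 in the hypoxic IFN-γ library. Both IFN-γ libraries stood far above both controls. The ratio was 39.1-fold under normoxia (95% interval 34.9 to 44.1) and 34.9-fold under hypoxia (31.7 to 38.5). The fitted log2 change was 5.20 (standard error 0.0648), and its adjusted p from edgeR or DESeq2 was at most 5.29e-05 over 6 alternative fits. Gbp2b, formerly named Gbp1 and the closest relative of Gbp2, had 0 counts in both controls, 5 in the normoxic and 2 in the hypoxic IFN-γ library. It never passed the floor, so no change was detectable at this depth.

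Gbp3 had 727 counts in the normoxic and 789 in the hypoxic control, and 9862 and 11552 in the normoxic and hypoxic IFN-γ libraries. It was the member with most counts in the normoxic control and had the smallest fitted change on chromosome 3, a log2 of 3.83 (standard error 0.0676, adjusted p from edgeR or DESeq2 at most 3.64e-05 over 6 alternative fits). Gbp7, which has been linked to oxidative and autophagic killing of bacteria, had 348 and 475 counts in the normoxic and hypoxic controls and 5872 and 7769 with IFN-γ. Its ratio was 17-fold under normoxia (14.6 to 20) and 16.5-fold under hypoxia (14.5 to 18.9), so the pairs of libraries gave nearly the same value. The fitted log2 change of Gbp7 was 4.07 (standard error 0.0756).

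Gbp5, isoprenylated and known for its part in inflammasome assembly, had 30 counts in the normoxic and 18 in the hypoxic control, and 790 and 1030 with IFN-γ. Few control reads left its size loosely measured. The log2 ratio was 4.71 under normoxia (95% interval 3.99 to 5.58) and 5.81 under hypoxia (4.92 to 6.99), and the fitted change was 5.24 (standard error 0.164, edgeR adjusted p = 1.31e-214, higher in 2 of 2 pairs). Over the alternative fits by edgeR and DESeq2, its adjusted p ran from 3.1e-19 to 0.000122.

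On chromosome 5 the counts were lower. Gbp6 had 26 and 31 counts in the normoxic and hypoxic controls and 701 and 879 with IFN-γ, with log2 ratios of 4.74 (3.97 to 5.69) and 4.82 (4.11 to 5.67). Gbp9 had 37 and 46 counts in the controls and 337 and 442 with IFN-γ. This was the smallest fitted change of the 9 tested members, a log2 of 3.24 (standard error 0.185, edgeR adjusted p = 3.05e-65, higher in 2 of 2 pairs, and from 5.01e-24 to 0.000735 over the alternative fits by edgeR and DESeq2). Gbp4, reported to restrain the interferon regulatory factor IRF7, had 3 counts in the normoxic and 14 in the hypoxic control, and 372 and 489 with IFN-γ. Its fitted log2 change of 5.67 (standard error 0.244) was the largest of the tested members, but rests on few control reads. The log2 ratio of Gbp4 was 6.75 under normoxia, with an interval from 4.85 to 10.77, and 5.09 under hypoxia (4.07 to 6.47). Its normoxic control was under the floor of 6 counts.

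Gbp8 and Gbp10 were scarce. Gbp8 had 4 counts in the normoxic and 0 in the hypoxic control, and 35 and 95 counts with IFN-γ. With the hypoxic control at 0, the hypoxic IFN-γ library stood 16-fold above the floor of 6 counts, and the 95% interval of the ratio began at 12.5-fold. Under normoxia, where the control was also under the floor, its ratio was 7.97-fold with an interval of 2.11 to 78.7. Gbp10 had 1 and 2 counts in the controls, both under the floor, and 21 and 26 with IFN-γ. Its log2 ratios were 3.86 (0.89 to 14.50) and 3.42 (0.98 to 9.12). By DESeq2's Wald test neither passed the threshold, with an adjusted p of 0.401 for Gbp8 (8.42e-07 to 0.401 over 5 alternative fits) and 0.0979 for Gbp10 (0.00146 to 0.0979), although the fitted log2 changes were 5.81 and 4.02 against 4.88 and 3.88 in edgeR. Gbp8 also missed it when 2 libraries were compared with 2 in edgeR without oxygen in the model (log2 change 4.95, adjusted p = 0.0587). A transcribed pseudogene of the family, Gbp11, had 2 and 0 counts in the normoxic and hypoxic controls and 7 and 3 with IFN-γ, and was not tested.

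**Figure D2:**
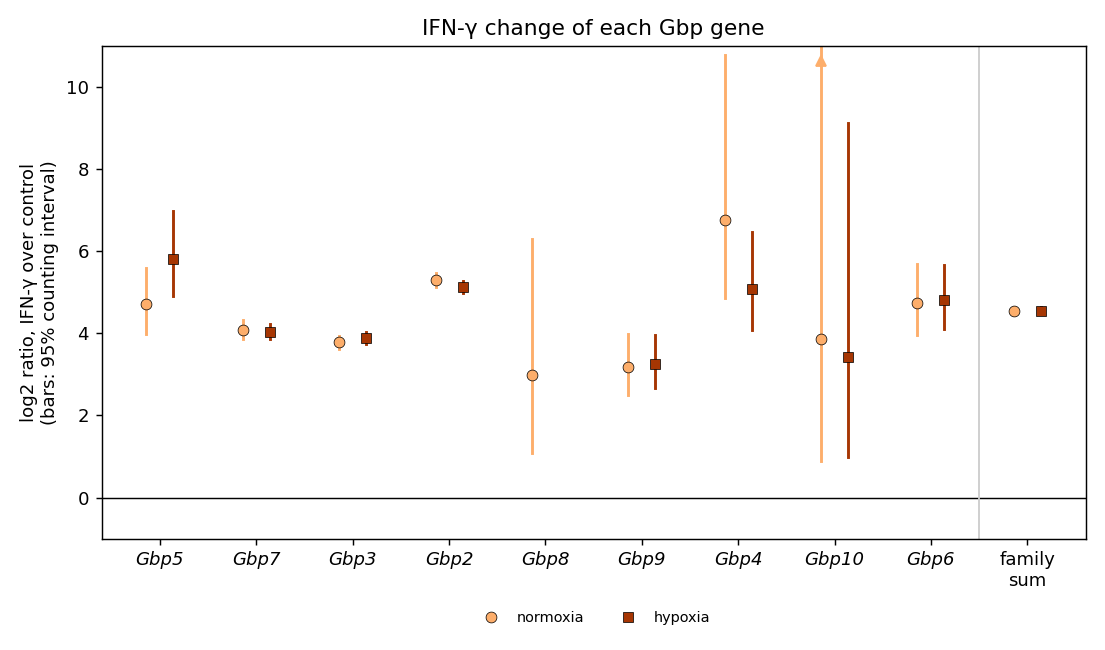
Log2 ratio of IFN-γ over control for 9 Gbp genes and the family sum, with circles for the normoxic and squares for the hypoxic pair of libraries. Bars are 95% intervals from counting error, an arrow marks a bar that leaves the axis, and the hypoxic ratio of Gbp8, whose control had 0 counts, is not drawn. Every bar lies above 0, and the bars of Gbp4, Gbp8 and Gbp10 are wide.

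Levels between genes were compared per length, as TMM-normalized CPM per kilobase of the longest coding transcript. In the normoxic IFN-γ library Gbp2 led with 268 (95% interval 263 to 273), ahead of Gbp3 with 107 (104 to 110) and Gbp7 with 30.5 (29.4 to 31.6). These places were separated by more than counting error. Gbp6 with 7.85 and Gbp5 with 7.54 came next and did not differ beyond their intervals, and neither did Gbp4 with 2.39 and Gbp9 with 2.24. Gbp8, Gbp10 and Gbp2b closed the order with 0.415, 0.174 and 0.0516. The interval of Gbp8 did not overlap that of Gbp9 above it, while Gbp8 and Gbp10 overlapped, as did Gbp10 and Gbp2b. In the hypoxic IFN-γ library the order was the same, and there Gbp8 with 1.13 and Gbp10 with 0.215 did not overlap. In the normoxic control Gbp3 with 7.83 (7.04 to 8.67) and Gbp2 with 6.85 (6.1 to 7.67) shared the lead within their intervals, Gbp7 followed with 1.79, and every other member was at most 0.288. By this level Gbp2 stood at place 7000 of 12381 ranked genes in the normoxic control and at place 249 in the normoxic IFN-γ library.

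The make-up of the family counts shifted toward Gbp2. It held 33.7% of the family counts in the normoxic control (Clopper-Pearson 95% interval 30.6 to 36.9) and 56.3% in the normoxic IFN-γ library (55.6 to 56.9). Under hypoxia its share was 38.1% without IFN-γ (35.2 to 41) and 56.8% with it (56.1 to 57.4). The intervals with and without IFN-γ do not touch in either oxygen. The share of Gbp3 was 41% in the normoxic control and 24% in the normoxic IFN-γ library, and 35.5% and 22.4% under hypoxia. Gbp2, Gbp3 and Gbp7 together kept 94.2% to 95% of the family counts in all 4 libraries, and the chromosome 3 members 95.8% to 96.4%. Another sum took the 7 members that share under 20% of their 31-base words with another gene. Its log2 ratios were 4.55 and 4.54 under normoxia and hypoxia, against 4.55 and 4.55 for all 10.

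**Figure D3:**
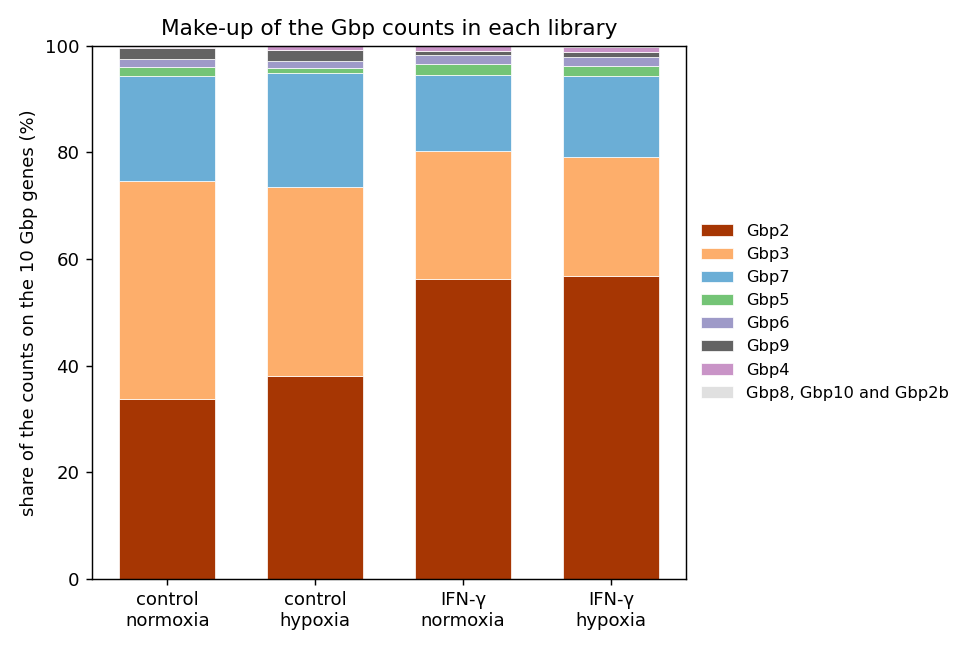
Share of the counts on the 10 Gbp genes that fell on each gene, in percent, with 1 bar per library. Gbp2 takes 33.7% and 38.1% of the counts in the controls and 56.3% and 56.8% with IFN-γ, while the part of Gbp3 is smaller with IFN-γ.

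Low oxygen had a much smaller effect on the family. The family sum was 1773 counts under normoxia and 2221 under hypoxia without IFN-γ, and 41148 and 51529 with it. The hypoxic library was the higher of each pair. The log2 ratio was 0.33 without IFN-γ (95% interval 0.20 to 0.46) and 0.33 with it (0.30 to 0.35). In the additive edgeR fit 3 of the 10 members were raised by hypoxia, Gbp2, Gbp7 and Gbp3, where 8.21% of all tested genes were raised and 6.83% lowered. Gbp2 was higher by a log2 of 0.51 without IFN-γ (0.29 to 0.72) and 0.34 with it (0.30 to 0.37), and its fitted change was 0.40 (standard error 0.0581, edgeR adjusted p = 6.25e-10, higher in 2 of 2 pairs). Gbp7 gave 0.45 (0.16 to 0.74) and 0.41 (0.34 to 0.47), with a fitted change of 0.42 (standard error 0.0706, edgeR adjusted p = 1.4e-07, higher in 2 of 2 pairs). Over 6 alternative fits by edgeR and DESeq2 the adjusted p of Gbp2 ran from 4.55e-06 to 0.951. For Gbp7 it ran from 3.03e-05 to 0.928. Each missed the threshold in 1 of these fits, with 2 libraries against 2 and no IFN-γ term. The central 95% of fitted hypoxia changes over all 13580 tested genes ran from -0.49 to 0.81. Over the 10443 genes with 100 counts or more in each library, the ratio without IFN-γ ran from -0.36 to 0.51, with Gbp2 at its upper limit.

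Gbp3 changed less, by a log2 of 0.12 without IFN-γ (-0.09 to 0.33) and 0.23 with it (0.17 to 0.28), and its fitted change of 0.19 passed narrowly (standard error 0.0632, edgeR adjusted p = 0.0234). Gbp3 missed the threshold in 3 of 6 alternative fits, among them DESeq2 (adjusted p = 0.206) and edgeR without a filter (0.072), and its adjusted p ran from 0.0175 to 0.96. The last value comes from edgeR with 2 libraries against 2 and no IFN-γ term, where none of the 3 passed although the fitted changes were 0.34 for Gbp2, 0.22 for Gbp3 and 0.41 for Gbp7. That fit leaves the large IFN-γ change of these genes in the error, so changes of this size could hardly pass. At an unadjusted p under 0.05 in the additive edgeR fit 8 members were past, as were 26.5% of all 13580 tested genes. DESeq2 called Gbp2 and Gbp7 and gave an adjusted p for 5 of the 9 tested members. The fitted log2 changes of Gbp4 at 0.49, Gbp6 at 0.32, Gbp9 at 0.38 and Gbp5 at 0.28 did not pass, with adjusted p in edgeR of 0.0527, 0.102, 0.129 and 0.147. By DESeq2 the change of Gbp4 was 1.10, without an adjusted p, and that of Gbp5 turned to -0.09. Among the IFN-γ libraries alone, where reads are many, the log2 ratio of hypoxia over normoxia ran from 0.23 for Gbp3 to 1.43 for Gbp8 over the 9 tested members. The central 95% of this ratio ran from -0.65 to 0.98 over all 13580 tested genes and from -0.36 to 0.51 over the 10443 that reached 100 counts in each library. Gbp8 lay beyond it, with 35 and 95 counts and an interval of 0.62 to 2.32 that reaches into the range of all genes.

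**Figure D4:**
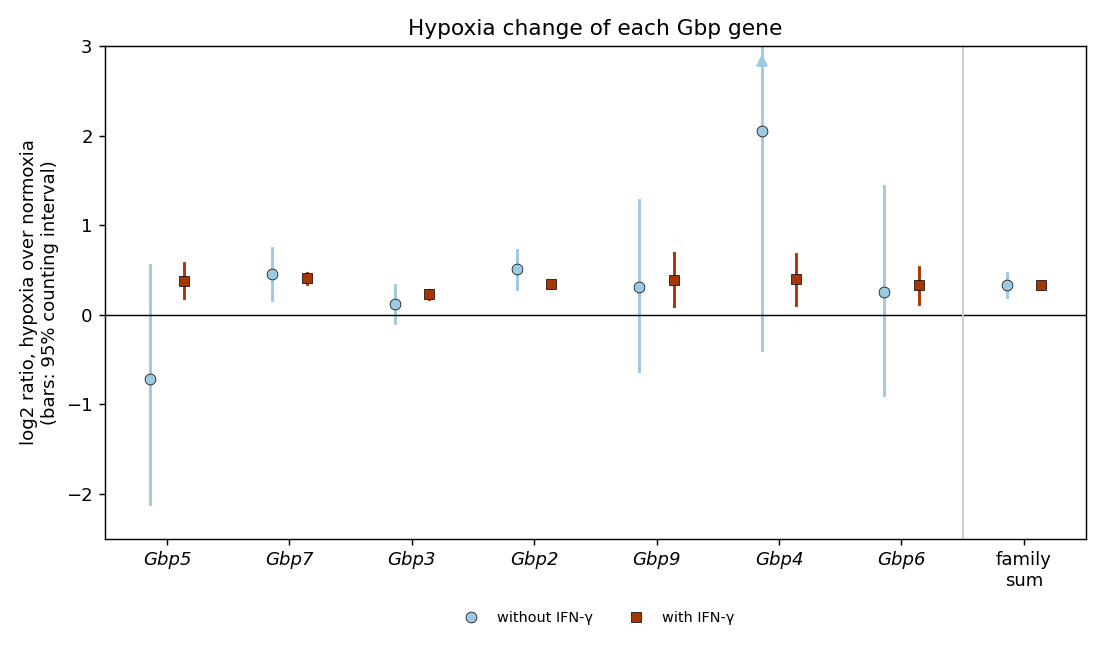
Log2 ratio of hypoxia over normoxia for 7 Gbp genes and the family sum, with circles for the libraries without and squares for those with IFN-γ, and bars for 95% counting intervals (an arrow marks a bar that leaves the axis). Gbp2b, Gbp8 and Gbp10, with few or no control counts, are left out. The squares lie between 0.23 and 0.41, and the circle of Gbp5 is the one below 0.

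Whether hypoxia alters the response to IFN-γ was asked by subtracting the normoxic from the hypoxic IFN-γ change. For the family sum this difference was 0.00 on the log2 scale (95% interval -0.13 to 0.13). It was -0.17 for Gbp2 (-0.38 to 0.05), 0.11 for Gbp3 (-0.10 to 0.32) and -0.05 for Gbp7 (-0.34 to 0.24). For Gbp5 it was 1.10 (-0.09 to 2.30) and for Gbp4 -1.66 (-4.06 to 0.74). None is given for Gbp8, whose hypoxic control had 0 counts, and the interval included 0 for each of the other 8 tested members. The central 95% of such differences ran from -0.97 to 1.01 over all 13580 tested genes and from -0.36 to 0.40 over the 10443 well-counted ones, of which Gbp2, Gbp3 and Gbp7 are members. Gbp5 and Gbp4, with few control counts, lay outside the range of all genes. Without replicates the difference was not tested.

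Genes of the IFN-γ pathway itself also responded. In a list of 13 signalling genes, 12 were tested, and IFN-γ raised 9 and lowered 1 in the edgeR fit, with a median log2 change of 0.81 against -0.01 over all tested genes. Irf1, for a transcription factor that binds ISRE letters, had 3770 and 4422 counts in the normoxic and hypoxic controls and 20118 and 23759 with IFN-γ, a fitted log2 change of 2.43 (standard error 0.0548). Stat2 rose by 1.51 on the same scale. The feedback inhibitor Socs1 had 492 and 371 counts in the normoxic and hypoxic controls and 1220 and 1187 with IFN-γ, log2 ratios of 1.32 and 1.69. These changes were smaller than that of any tested Gbp gene. The lowered gene was Ifngr1, for a receptor chain, named after its value was seen, which fell by 0.25 (edgeR adjusted p = 0.0308). Hypoxia raised 5 of the 12 and lowered 0 by the edgeR test, with a median of 0.09. Over all 13580 tested genes IFN-γ raised 4.76% and lowered 1.10%, and hypoxia raised 8.21% and lowered 6.83%. These shares also apply to the counts of each list below.

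The immunity-related GTPases, a second family of interferon-induced GTPases that acts on the same vacuoles, had the median closest to the Gbp changes among the 8 lists looked at. Of 12 listed names 11 were found and tested, and IFN-γ raised 10 and lowered 0, with a median log2 change of 4.50. Of these, Gm5431, with 2 counts in each control and 19 and 24 with IFN-γ, passed the filter through the IFN-γ libraries (named after its values were seen). Hypoxia raised 6 and lowered 0 with a median of 0.29. Gm12250, which encodes Irgb10, had 12 and 10 counts in the normoxic and hypoxic controls and 1012 and 1339 with IFN-γ, a fitted change of 6.73. Iigp1, an effector that loads onto vacuoles, had 92 and 88 counts in the controls and 6755 and 8711 with IFN-γ, a change of 6.43. Tgtp1 and Tgtp2 had fitted changes of 7.07 and 5.62, but Tgtp1 shares 83.2% of its words with Tgtp2, so the split between them is uncertain.

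The machinery that works with GBPs was moved far less. Of 12 genes for ATG8 proteins, the enzymes that attach them to membranes and an autophagy receptor, IFN-γ raised and lowered 0 in the edgeR fit (median -0.07). Of 6 enzymes that prenylate proteins or trim and methylate them afterwards, it also raised and lowered 0 (median -0.03). Among 6 ubiquitin ligases found on coated vacuoles 4 were raised, with a median of 0.48. Trim21, one of these ligases, had 466 and 582 counts in the normoxic and hypoxic controls and 2072 and 2196 with IFN-γ, a log2 change of 2.04. Rnf213, a very large ligase that binds microbial surfaces, rose by 0.95, and Rnf31 and Rbck1 of the linear ubiquitin complex rose by 0.61 and 0.36. Hypoxia raised 1 of the ATG8 genes and lowered 1 of the enzymes of prenylation and later processing, with log2 changes of 0.30 for Gabarap and -0.19 for Zmpste24, both named after their values were seen, and raised and lowered 0 of the ligases. Of all tested genes hypoxia raised 8.21% and lowered 6.83%.

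Downstream of GBPs, inflammasome and pyroptosis genes were mixed. Of 11 listed genes 5 passed the filter, and IFN-γ raised 2, with a median of 0.08. The other tested genes, Casp8, Aim2 and Ninj1, had at least 489 counts in every library and fitted log2 changes of -0.02, 0.08 and 0.01. Casp1 had 292 and 326 counts in the normoxic and hypoxic controls and 865 and 875 with IFN-γ, a log2 change of 1.51. Casp4, the caspase that senses lipopolysaccharide, had 555 and 597 counts in the controls and 919 and 1042 with IFN-γ, a log2 change of 0.78. The adaptor gene Pycard had 0 counts in 3 libraries and 2 in the hypoxic IFN-γ library. Gsdmd, the pore-forming gasdermin, had 3 and 0 counts in the controls and 0 and 8 with IFN-γ. Pycard, Gsdmd, Casp8, Aim2 and Ninj1 were named after their values were seen. Hypoxia raised and lowered 0 of these genes by edgeR's test.

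Other GTPases of the dynamin superfamily, to which GBPs belong, did not share the response. Of 12 listed genes 11 were tested, and IFN-γ raised 1 and lowered 0, with a median of -0.03, where 4.76% of all tested genes were raised. The raised gene was the antiviral Mx2, with 51 and 68 counts in the normoxic and hypoxic controls and 126 and 137 with IFN-γ, a log2 change of 1.16 (standard error 0.23). Hypoxia raised 1 of these 11, with a median of 0.05, where 8.21% of all tested genes were raised. As a check on the oxygen label, hypoxia raised 11 and lowered 1 of 12 hypoxia targets, with a median of 1.24 against 0.00 over all tested genes, and IFN-γ raised and lowered 0 by the edgeR test. Car9, for carbonic anhydrase IX, was higher by 2.14 under hypoxia, Bnip3 by 1.68, Egln1 by 1.38 and the glucose transporter gene Slc2a1 by 1.29. Bnip3 shares 20.3% of its words with other genes. Among the Gbp genes the largest fitted hypoxia change in edgeR was that of Gbp8, whose 1.11 did not pass the test (edgeR adjusted p = 0.0851). Gbp8 had 4 and 0 counts in the normoxic and hypoxic controls, and by DESeq2 its hypoxia change turned to -1.12.

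**Figure D5:**
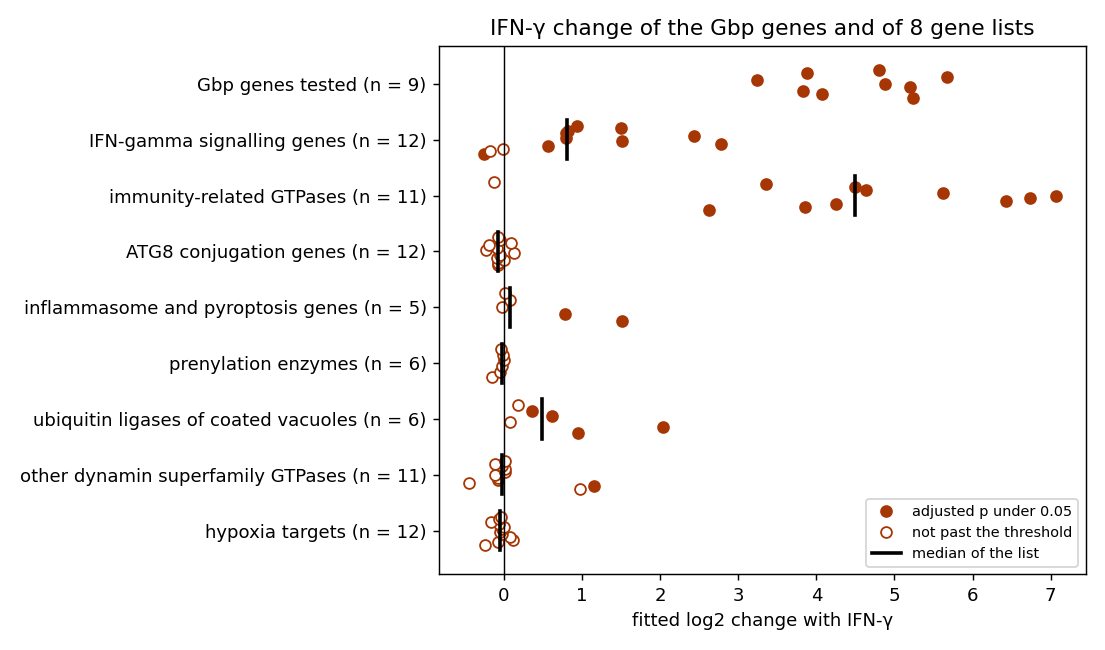
Fitted log2 change with IFN-γ of the 9 tested Gbp genes and of the tested genes in 8 lists, with 1 point per gene, filled where the adjusted p was under 0.05, and a black line at the median of each list. The Gbp points lie between 3.24 and 5.67, and the medians of the lists are 4.50 for immunity-related GTPases and at most 0.81 for the others.

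The genes whose pattern lay nearest to the family sum were sought over the 4 libraries, by Euclidean distance between centred log2 CPM, among 10570 genes outside the family with a mean of at least 100 counts. The first 5 were Ifi47, Gm4951, Zbp1, Igtp and Apol6, at distances of 0.133, 0.153, 0.183, 0.31 and 0.327. Ifi47, Gm4951 and Igtp encode immunity-related GTPases. Ifi47 had 128 and 145 counts in the normoxic and hypoxic controls and 2992 and 3775 with IFN-γ. Zbp1, a sensor of Z-form nucleic acids, had 120 and 159 counts in the controls and 2531 and 3214 with IFN-γ. Over the 4 libraries the family sum differs mainly by IFN-γ, so closeness to it says little beyond a like size of change.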

How the data were processed

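MC38 libraries were poly-A selected, strand-specific and sequenced as paired 100-base reads. The authors aligned reads with HISAT2 and deposited whole-number counts per gene, not normalized. The submitters' processing notes name featureCounts and mm10, and the treatment of reads that match several genes is not given in the sources used here. Symbols for 25275 of 27179 gene IDs came from RefSeq (GRCm38.p6). edgeR 4.0.16 (R 4.3.3) fitted an additive model of oxygen and IFN-γ on the deposited counts, with TMM, filterByExpr (minimum 10 counts) and Benjamini-Hochberg adjustment over 13580 genes at 0.05. Single pairs are log2 ratios with 0.5 counts added and Clopper-Pearson 95% intervals, and levels have Poisson intervals. Because counts leaned to even numbers, intervals used counts divided by 2, a choice made after seeing the data. Word sharing, lengths and coding identity used GENCODE M21 transcripts. Alternatives were DESeq2 1.42.0, its size factors in edgeR, other filters, 2 libraries against 2, counts divided by 2, and other family sums. Named genes were all members, any other Gbp symbol, up to 4 of each list with the largest change among those past the threshold, Irf1, and the 5 genes nearest the family sum. The result of 1 gene under this rule is not reported here. Members and lists were chosen with earlier results of these data known.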

Additional observations from a re-analysis of the deposited data

Results flagged for a closer look

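The hypoxia change of Gbp5 pointed in opposite directions without and with IFN-γ. Its counts were 30 under normoxia and 18 under hypoxia without IFN-γ, and 790 and 1030 with it. The log2 ratio was -0.72 without IFN-γ (95% interval -2.11 to 0.55) and 0.38 with it (0.19 to 0.58), a difference of 1.10 (-0.09 to 2.30). Each direction rests on 1 pair of libraries, and the difference was not tested.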

How the results depend on the processing

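The IFN-γ result was stable in direction: all 51 refitted IFN-γ changes of single members over 6 alternative fits kept their sign, and 48 kept their side of the threshold. The number of raised members was 9 with DESeq2's size factors, without a filter, and when a minimum log2 change of 1 was also asked for. It was 9 again with counts divided by 2, added after seeing the data. It was 8 with 2 libraries against 2 and 7 by DESeq2's Wald test. With at least 10 counts in every library it was 6 of 6 tested, where fewer members were tested. The share of all genes raised was taken only for the test as reported (4.76%), so these numbers lack one. The number changed by hypoxia was 3 by the test as reported, where 8.21% of all tested genes were raised and 6.83% lowered. It was 0 with 2 libraries against 2, where the IFN-γ change enters the error. It was 8 at an unadjusted p under 0.05 in edgeR (26.5% of all tested genes), and otherwise ran from 2 to 4. No share of all genes was taken for the other fits. Counts divided by 2 added Gbp8 (edgeR adjusted p = 0.0344). Of 51 refitted hypoxia changes, 2 reversed, both by DESeq2's Wald test: Gbp5 to -0.09 (adjusted p = 0.975) and Gbp8 to -1.12, which got no adjusted p. The latter moved by 2.23, the largest move of any member's change; Gbp8 has 4 and 0 control counts, and the cause was not tested. Gbp2 had the most counts in both IFN-γ libraries. Without Gbp2, the log2 change of the family sum with IFN-γ was 3.95 under normoxia and 4.03 under hypoxia. Total counts, 5 counts added, the 7 less similar members and all 11 Gbp symbols left each family value within its interval. No paired analysis was possible because each group has 1 library and no replicates to pair, though the additive fit compares within each oxygen and each treatment. Depth limits Gbp2b, Gbp8 and Gbp10, whose controls held 0 to 4 counts. It also limits the normoxic ratio of Gbp4, whose normoxic control held 3 counts.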
